A study of Danio rerio with 6 samples.

Results

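Genes of the Bmp and Tgf-beta signalling pathways were taken by a rule on gene symbols that uses no measured value, although the pathway itself was picked with earlier results of these data known. Every probe set whose symbol in the platform annotation begins with bmp, tgfb, smad, gdf, ndr1, ndr2, lft, nog1, nog2, nog3, chrd, szl, fst, acvr, inhb or id1 to id4 was taken. This gave 64 probe sets of 51 genes, out of 15617 probe sets on the array. A probe set is a group of short oligonucleotides that reads 1 transcript or, for some, several transcripts, and some genes have several probe sets. The members comprised 22 probe sets of 18 ligand genes, 12 of 11 antagonist genes, 13 of 8 receptor genes, 9 of 7 Smad genes and 6 of 5 Id genes. The other 2 probe sets, those of tgfbi and bmp2k, match the letters of the symbols but encode no ligand, receptor or Smad.

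The arrays held total RNA of zebrafish embryos of the Tu strain, collected at 24 hours after fertilization. In 3 samples the embryos had been kept in leflunomide at 6.5 uM since 50% epiboly, a stage of gastrulation, and in 3 samples they had been kept in DMSO, the solvent, over the same period. Leflunomide is an antirheumatic drug, and its active form inhibits the pyrimidine synthesis enzyme dihydroorotate dehydrogenase. The labels give neither the number of embryos per sample nor whether replicates were separate clutches. The p-values therefore reflect the scatter among these particular samples, part or all of which may be technical. The labelled tissue is the embryo, a mixture of cell types, so fewer cells of a type and less RNA per cell cannot be told apart.

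Bmp, Gdf, Nodal, activin and Tgf-beta proteins are secreted ligands of 1 large family. They bring together receptors that are serine/threonine kinases, and these phosphorylate Smad proteins that enter the nucleus and regulate target genes. In the zebrafish gastrula, Bmp ligands specify ventral fates and are held back on the dorsal side by Chordin and Noggin, while Nodal ligands induce mesoderm and endoderm and are limited by Lefty. At later stages Bmp signals act in the tail bud, the dorsal eye, the dorsal neural tube and the fins, and the Id genes, which encode inhibitors of bHLH transcription factors, are widely used as targets of the Bmp branch.

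Each value below is a log2 value centred on the median of its probe set over the 6 arrays, so it gives the difference between arrays and not the level of the transcript. A difference is the mean of the leflunomide arrays minus the mean of the DMSO arrays. A probe set is called when its p-value from limma, adjusted by Benjamini-Hochberg over 12702 tested probe sets, is under 0.05. Of the 64 members, 58 (46 genes) reached the level needed for testing.

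After leflunomide, id1, id3, id4 and the ligand gene bmp5 were lower, the ligand genes inhbaa, gdf6a and bmp2b and the antagonist genes nog1 and chrd were modestly higher, and so was tgfbi. No receptor or Smad probe set was called. Of the 58 tested members, 7 rose and 4 fell, together 19.0%. Over all tested probe sets, 9.83% rose and 10.8% fell, together 20.6%. The share of members called was therefore close to that of the array as a whole. The median difference was 0.07 over the members and 0.04 over all tested probe sets. The leflunomide arrays lay wholly above the DMSO arrays for 14 members and wholly below them for 6, together 34.5%, where 40.8% of all tested probe sets showed such a gap in either direction. The split between higher and lower calls depended on the scaling. Members had 5 higher and 4 lower calls (55.6% higher) with the medians of the arrays aligned and 4 higher and 5 lower (44.4% higher) with their 75th percentiles aligned, against 63.6% higher as deposited. The calls over all tested probe sets moved the same way, with 43.3% and 38.2% higher, against 47.7% as deposited. These alignments moved the median difference of all tested probe sets by -0.024 and by -0.059.

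**Figure D1:**
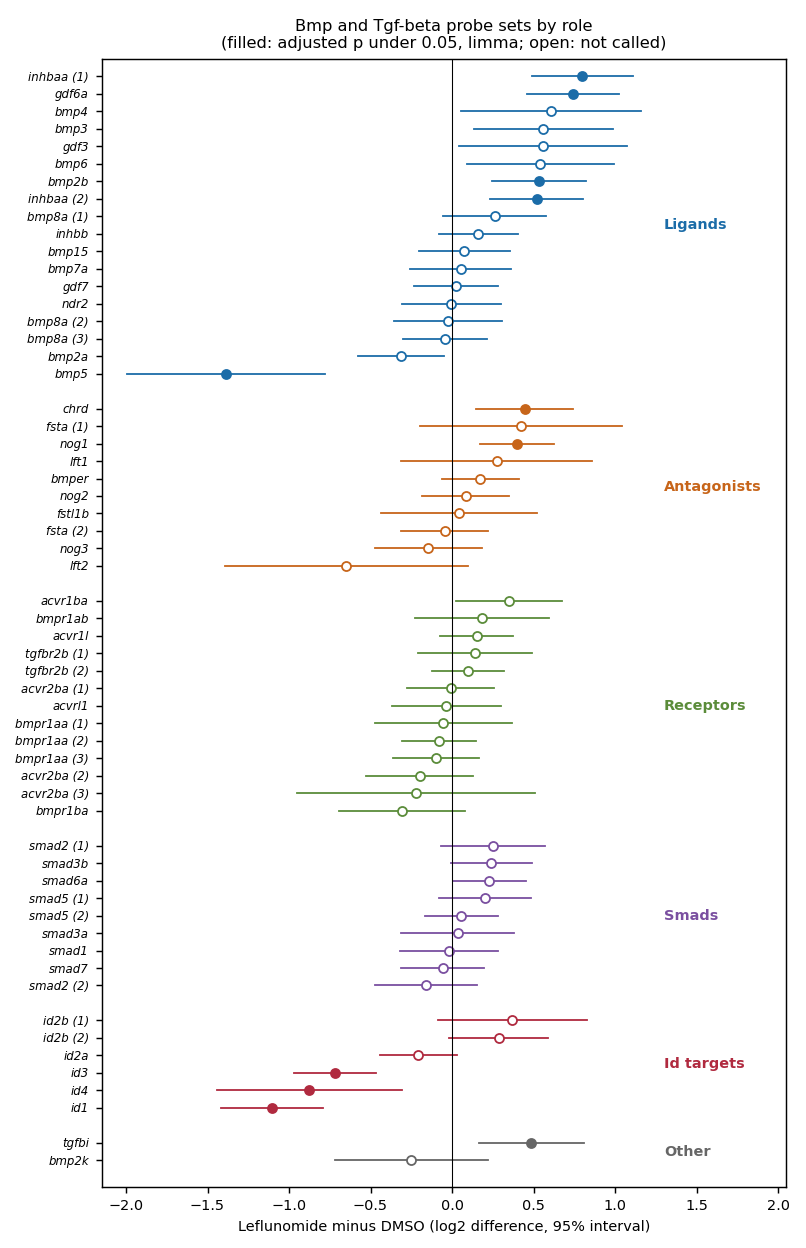
Log2 difference, leflunomide minus DMSO, of the 58 tested member probe sets, grouped by role, with 95% intervals from limma. Filled circles are called probe sets and open circles are not called. The Id genes id1, id3 and id4 and the ligand gene bmp5 lie furthest to the left among the called members, and all 13 receptor and 9 Smad probe sets are open.

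The Id genes id1, id3 and id4 fell after leflunomide. Of 6 tested probe sets, 3 fell and 0 rose in limma, and 3 had an unadjusted p under 0.05. The background for falling calls is 10.8% of all tested probe sets, and the role holds too few probe sets for its share to say more than its members do. id1, the Id gene most often used as a readout of Bmp signalling, had values of -0.42, -0.83 and -0.57 on leflunomide arrays 1 to 3, against 0.44, 0.42 and 0.64 on DMSO arrays 1 to 3. All leflunomide arrays lay below all DMSO arrays, and the groups were well apart. The difference for id1 was -1.10 (SE 0.13), a 2.15-fold fall (limma adjusted p = 0.00235, n = 3 and 3).

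id3, another inhibitor of bHLH factors, had values of -0.28, -0.49 and -0.37 after leflunomide, against 0.45, 0.28 and 0.29 in DMSO. The values within each group were close together, and the fall was 1.65-fold (log2 -0.72, SE 0.11, limma adjusted p = 0.00495). Both id1 and id3 stayed called whichever of the 6 arrays was omitted, and in all 7 other alternative fits. Their medians lay in the highest band of level that could be recovered, a log2 level of 8 to 16.

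id4, which is prominent in neural progenitors of vertebrates, had values of -0.09, -1.12 and -0.91 after leflunomide, against 0.21, 0.21 and 0.09 in DMSO. Leflunomide array 1 stayed near the DMSO arrays while arrays 2 and 3 were far below them. The 1.84-fold fall (log2 -0.88, SE 0.24, limma adjusted p = 0.0416) was kept without leflunomide array 1 and lost when any other array was omitted, with adjusted p up to 0.118.

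The other Id genes were not called. id2a had values of -0.03, -0.20 and -0.13 after leflunomide, against 0.18, 0.03 and 0.05 in DMSO, which gave a difference of -0.21 (95% interval -0.44 to 0.03, limma adjusted p = 0.191). The groups did not overlap, but the gap between them was small. For id2b the differences pointed upward at both probe sets, 0.29 and 0.37 (limma adjusted p = 0.163 and 0.226), and the groups overlapped at each. Whether id2b differed from id1, id3 and id4 in its response was not tested.

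Among ligands, 4 of 18 tested probe sets rose and 1 fell, against a background of 9.83% higher and 10.8% lower. The rises belonged to 3 genes, inhbaa, gdf6a and bmp2b, each less than 2-fold. The median difference of the ligand probe sets was 0.21, against 0.04 over all tested probe sets. The leflunomide arrays lay wholly above the DMSO arrays for 7 ligand probe sets and wholly below them for 2, together 50%. Over all tested probe sets the shares were 22.4% above and 18.4% below, together 40.8%.

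inhbaa encodes the beta A subunit of activin, a ligand that signals through Smad2 and Smad3. Its first probe set had values of 0.21, 0.41 and 0.48 after leflunomide, against -0.57, -0.51 and -0.21 in DMSO. Its second had 0.17, 0.23 and 0.28 after leflunomide, against -0.20, -0.52 and -0.17 in DMSO. Both separated the groups completely. The differences were 0.80 (SE 0.13, 1.74-fold, limma adjusted p = 0.00737) and 0.52 (SE 0.12, 1.43-fold, limma adjusted p = 0.0241). The first call held whichever array was omitted, and the second held only on omitting leflunomide array 1. inhbaa was the only 1 of 9 genes with several tested member probe sets at which any was called.

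gdf6a, a Bmp-type ligand of the dorsal eye, had values of 0.26, 0.46 and 0.65 after leflunomide, against -0.28, -0.31 and -0.26 in DMSO. The DMSO arrays agreed closely and all leflunomide arrays were above them. The rise was 1.67-fold (log2 0.74, SE 0.12, limma adjusted p = 0.00684), and it stayed called whichever array was omitted.

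bmp2b, the ventralizing ligand mutated in the swirl line, had values of 0.16, 0.47 and 0.17 after leflunomide, against -0.25, -0.38 and -0.16 in DMSO. The rise was 1.44-fold (log2 0.53, SE 0.12, limma adjusted p = 0.0234). No array of one group reached the other, but the call was lost without leflunomide array 2 or any 1 of the DMSO arrays, with adjusted p up to 0.0867.

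bmp5 was the ligand that fell. Bmp5 belongs to the Bmp5, Bmp6 and Bmp7 subgroup of ligands. Its values were -0.32, -1.44 and -1.12 after leflunomide, against 0.45, 0.32 and 0.52 in DMSO. The fall was 2.62-fold (log2 -1.39, SE 0.26, limma adjusted p = 0.0111), the largest among the tested members. As with id4, leflunomide array 1 showed the smallest change. The call was lost without DMSO array 3 (adjusted p = 0.0559) and kept when any other array was omitted.

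Several further ligands were higher on average without being called. bmp4, which is expressed in the tail bud, heart and dorsal eye, had values of 0.59, 1.01 and -0.02 after leflunomide, against 0.02, -0.11 and -0.16 in DMSO. Arrays 1 and 2 were high and array 3 lay among the DMSO arrays. The difference was 0.61 (SE 0.24, limma adjusted p = 0.11), and without leflunomide array 3 it was 0.88 (adjusted p = 0.0132). On omitting any other array bmp4 was not called (limma adjusted p up to 0.254). bmp3, a divergent member of the family, differed by 0.56 (limma adjusted p = 0.0668) and bmp6 by 0.54 (limma adjusted p = 0.0878), each with groups that did not overlap.

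bmp2a, the paralogue of bmp2b, differed in the other direction, by -0.31 (95% interval -0.58 to -0.05, limma adjusted p = 0.089). bmp7a, whose product forms heterodimers with Bmp2b in the gastrula, had a difference of 0.05 (95% interval -0.26 to 0.36, limma adjusted p = 0.82). The Nodal ligand gene ndr2, known as cyclops, had a difference of -0.0045 (95% interval -0.31 to 0.30, limma adjusted p = 0.985). The sign of both small values turned under other settings. The other 7 tested ligand probe sets had differences between -0.04 and 0.56, with adjusted p of at least 0.115.

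**Figure D2:**
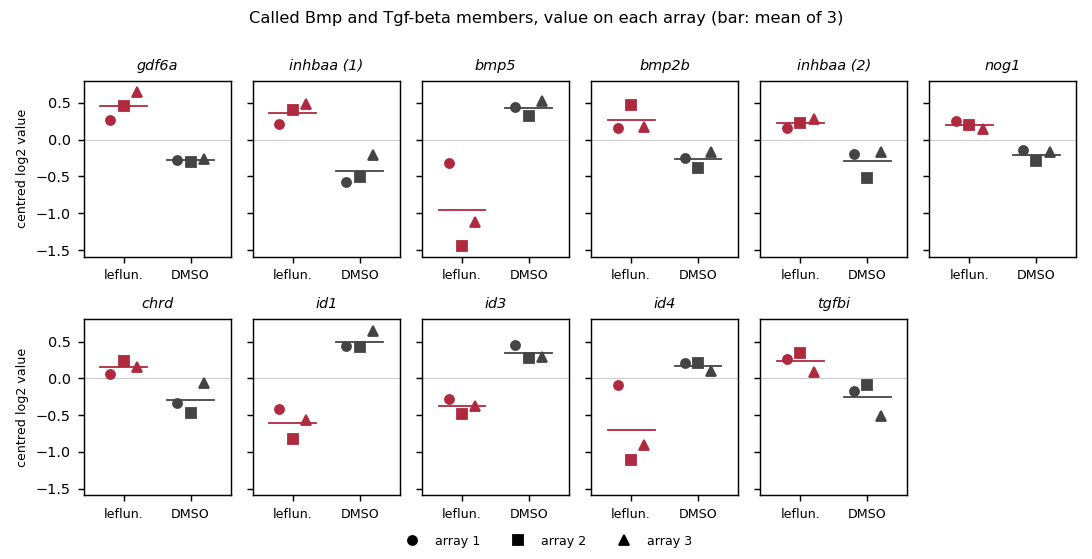
Centred log2 value of each called member probe set on each array, with leflunomide on the left and DMSO on the right of each panel, 3 arrays each shown by symbol, and bars at the means. No leflunomide array overlaps the DMSO arrays in any panel, and array 1 (circle) lies nearest to DMSO for bmp5 and id4.

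Antagonists were called in 2 of 10 tested probe sets, both higher. The background is 9.83% for higher calls. nog1, a Noggin that binds Bmp ligands outside the cell, had values of 0.25, 0.20 and 0.14 after leflunomide, against -0.14, -0.29 and -0.17 in DMSO. The arrays of each group were close together, and the rise was 1.32-fold (log2 0.40, SE 0.10, limma adjusted p = 0.0275). It was lost with 75th percentiles aligned (adjusted p = 0.0575), and with 1 array omitted it was kept only when that was leflunomide array 3.

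chrd, which encodes Chordin, the dorsal Bmp antagonist mutated in the chordino line, had values of 0.06, 0.24 and 0.16 after leflunomide, against -0.33, -0.47 and -0.06 in DMSO. DMSO array 3 came close to leflunomide array 1. The rise was 1.36-fold (log2 0.44, SE 0.13, limma adjusted p = 0.0475). The call was lost with array medians aligned (adjusted p = 0.0525), with 75th percentiles aligned (0.0632) and with the replicate number as a block (0.0622), and with 1 array omitted it was kept only when that was DMSO array 3.

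The Lefty genes, whose products block Nodal signalling, varied widely between leflunomide arrays. lft2 had values of 0.23, -0.80 and -1.17 after leflunomide, against 0.21, 0.05 and -0.05 in DMSO. Array 1 was at the level of the DMSO arrays, and arrays 2 and 3 were well below. The difference was -0.65 (SE 0.32, limma adjusted p = 0.194), and without leflunomide array 1 it was -1.05 (adjusted p = 0.00395). On omitting any other array lft2 was not called, and without leflunomide array 3 the difference was -0.355 (limma adjusted p = 0.424). lft1 had values of 0.81, -0.15 and -0.01 after leflunomide, against 0.11, 0.01 and -0.29 in DMSO, so that only array 1 was high. Its difference was 0.27 (limma adjusted p = 0.496).

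The remaining antagonists were not called. nog2 and nog3 differed by 0.08 and -0.15 (limma adjusted p = 0.665 and 0.524), with intervals of -0.18 to 0.35 and of -0.48 to 0.18. bmper, a Bmp-binding protein of the extracellular matrix, differed by 0.17 (limma adjusted p = 0.269). fsta, a follistatin that binds activin, differed by 0.42 at its first probe set (limma adjusted p = 0.309), where leflunomide array 3 was at -0.31 and arrays 1 and 2 at 0.38 and 0.69. At its second probe set the difference was -0.045 (limma adjusted p = 0.826).

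Of 13 receptor probe sets, 0 were called in limma, against 20.6% of all tested probe sets, and 1 had an unadjusted p under 0.05. This was acvr1ba, which encodes an activin type I receptor, with values of 0.22, 0.46 and -0.002 after leflunomide, against -0.20, -0.17 and 0.002 in DMSO. Leflunomide array 3 and DMSO array 3 lay side by side. The difference was 0.35 (95% interval 0.03 to 0.67, limma adjusted p = 0.116). bmpr1ba, a Bmp type I receptor gene, differed by -0.31 (95% interval -0.69 to 0.08, limma adjusted p = 0.23). acvr1l, the type I receptor mutated in the lost-a-fin line, differed by 0.15 (95% interval -0.07 to 0.38, limma adjusted p = 0.312).

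Receptor differences as a whole ran from -0.31 to 0.35, with a median of -0.035. The 3 probe sets of bmpr1aa lay between -0.10 and -0.05, those of the type II receptor gene acvr2ba between -0.22 and -0.01, and the 2 of tgfbr2b, a type II receptor for Tgf-beta, between 0.10 and 0.14. One of the acvr2ba probe sets had values of 0.05, 0.19 and -0.996 after leflunomide, against 0.29, -0.05 and -0.34 in DMSO, so a single array set its mean.

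Of 9 Smad probe sets, 0 were called in limma, against the same 20.6% background, and 1 had an unadjusted p under 0.05. That was smad6a, an inhibitory Smad of the Bmp branch, with values of 0.05, 0.22 and 0.20 after leflunomide, against -0.05, -0.07 and -0.08 in DMSO. The groups were apart, but the difference was only 0.23 (95% interval 0.0035 to 0.45, limma adjusted p = 0.136). smad7, the other inhibitory Smad measured, had a difference of -0.06 (95% interval -0.31 to 0.20, limma adjusted p = 0.762).

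Of the Smads that carry the Bmp signal, smad1 and smad5 were measured and not called, and smad9 had no probe set among the members. smad1 differed by -0.02 (95% interval -0.32 to 0.28, limma adjusted p = 0.939). smad5, mutated in the somitabun line, had differences of 0.20 (95% interval -0.08 to 0.49, limma adjusted p = 0.284) and 0.06 (95% interval -0.17 to 0.28, limma adjusted p = 0.73) at its 2 probe sets. Among the Smads of the activin and Tgf-beta branch, smad3b differed by 0.24 (limma adjusted p = 0.155), and smad2 by 0.25 at one probe set (limma adjusted p = 0.239) and in the opposite direction at the other (-0.16).

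Beyond the signalling components, tgfbi, an extracellular matrix protein gene named for its induction by Tgf-beta, rose 1.40-fold. Its values were 0.26, 0.34 and 0.09 after leflunomide, against -0.17, -0.09 and -0.51 in DMSO (log2 difference 0.49, SE 0.14, limma adjusted p = 0.0454). The gap between the groups was narrow, and the call was lost with array medians aligned (adjusted p = 0.0576), with 75th percentiles aligned (0.0843) and on omitting any array but leflunomide array 3. bmp2k, which encodes a kinase, differed by -0.25 (limma adjusted p = 0.435).

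The 6 members below a recovered log2 level of 4 were not tested. Their differences were 0.37 for szl (sizzled, a secreted Bmp feedback antagonist), -0.45 for the follistatin-like gene fstl5, 0.20 for tgfb1a, 0.09 for gdf6b, -0.06 for the Nodal ligand gene ndr1 (squint) and 0.005 for the lower of the 2 bmp15 probe sets. For szl the leflunomide arrays were at 0.23, 0.04 and 0.40, against -0.32, -0.04 and -0.09 in DMSO, and for fstl5 they were at -0.03, -0.54 and -0.39, against 0.26, 0.03 and 0.08. In both, the groups did not overlap.

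A wider list of pathway genes that the symbol rule leaves out had 65 genes on the array, with 68 tested probe sets of 58 genes. Of these probe sets, 9 rose and 10 fell, together 27.9%, against 20.6% of all tested probe sets, and their median difference was -0.02. Genes used as targets of Bmp signalling moved in both directions, with 4 of 26 probe sets higher and 4 lower, against 9.83% and 10.8% of all tested probe sets. vox and ved, homeobox repressors that are induced by Bmp in the gastrula and keep ventral tissue from dorsal fate, rose by 1.12 (SE 0.19, limma adjusted p = 0.00791) and 0.84 (SE 0.17, limma adjusted p = 0.0136). For vox the values were 0.33, 0.58 and 1.08 after leflunomide, against -0.46, -0.59 and -0.33 in DMSO. All leflunomide arrays were above all DMSO arrays for both genes, and array 1 was the lowest of the 3. The call of vox was kept whichever array was omitted, and that of ved was lost without DMSO array 1 or 2 (adjusted p up to 0.0562).

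cdx4, a tail bud homeobox gene, rose by 1.63 (SE 0.21, limma adjusted p = 0.00294), and gata2a, a factor of blood, vessel and ventral ectoderm, by 0.68 (SE 0.15, limma adjusted p = 0.0185). The gata2a call was lost without leflunomide array 2 or any 1 of the DMSO arrays (adjusted p up to 0.0698). atoh8, a bHLH gene that Bmp signals induce in mammalian endothelium, fell at both probe sets, by 1.15 (SE 0.17, limma adjusted p = 0.00454) and by 0.60 (SE 0.16, limma adjusted p = 0.0352) on the log2 scale. At the first of them the values were -0.34, -0.98 and -0.72 after leflunomide, against 0.49, 0.56 and 0.34 in DMSO. msx3, a homeobox gene, fell by 0.59 at 1 of 3 probe sets (limma adjusted p = 0.0332). The name of that probe set shares its cluster number with probe sets of the neuronal gene elavl3, so which gene it reads is not certain. The msx3 probe set of another cluster differed by -0.49 and was not called (limma adjusted p = 0.0703). hey2, a bHLH repressor, fell by 0.40 (limma adjusted p = 0.0424), a call lost with the replicate number as a block (0.0695). With 1 array omitted, the calls of msx3, hey2 and the second atoh8 probe set were kept only when that was leflunomide array 1 (adjusted p otherwise up to 0.132). Called target genes therefore included both risers (vox, ved, cdx4, gata2a) and fallers (id1, id3, id4, atoh8, hey2, and msx3 at 1 probe set).

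Among secreted and extracellular modulators, 1 of 10 tested probe sets rose and 2 fell, where 9.83% and 10.8% of all tested probe sets did. sost, which encodes sclerostin, a secreted protein of the Dan family, fell by 0.76 (SE 0.14, limma adjusted p = 0.0109) and stayed called whichever array was omitted. thbs1b, a thrombospondin gene whose mammalian counterpart activates latent Tgf-beta, fell by 0.80 (SE 0.17, limma adjusted p = 0.0166), and without DMSO array 2 it was no longer called (adjusted p = 0.0555). twsg1b, a Twisted gastrulation gene whose product binds Bmp and Chordin, rose by 0.62 (SE 0.15, limma adjusted p = 0.0262), a call kept only on omitting leflunomide array 3. Of 14 probe sets of intracellular modulators, 1 rose, that of map3k7, the Tak1 kinase gene (log2 0.39, SE 0.11, limma adjusted p = 0.0491), and it was lost whichever array was left out. The map3k7 call was also lost with array medians aligned (adjusted p = 0.0607), 75th percentiles aligned (0.0786), array weights (0.0532) and the replicate number as a block (0.0663).

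Genes used as targets of Tgf-beta or Nodal included 3 of 18 tested probe sets that rose and 4 that fell, where 9.83% and 10.8% of all tested probe sets did. The fibronectin gene fn1a rose by 1.19 (SE 0.17, limma adjusted p = 0.00382) at its first probe set and had a difference of 0.18 at its second, and its paralogue fn1b had a log2 rise of 1.86 (SE 0.19, limma adjusted p = 0.00132). snai1a, a zinc finger repressor of migrating cells, rose by 0.80 (SE 0.13, limma adjusted p = 0.00584). The collagen genes fell at every probe set, with differences of -2.09 and -1.35 for col1a1a (limma adjusted p = 0.00639 and 0.0203) and of -1.22 and -1.20 for col1a2 (limma adjusted p = 0.00831 and 0.019). The second call of each was lost without leflunomide array 2 or any 1 of the DMSO arrays (adjusted p up to 0.0766). Both col1a1a probe sets carry the suffix for oligonucleotides shared by several transcripts. On leflunomide array 1 the first col1a1a probe set was at -0.59, against -1.97 and -1.89 on arrays 2 and 3.

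**Figure D3:**
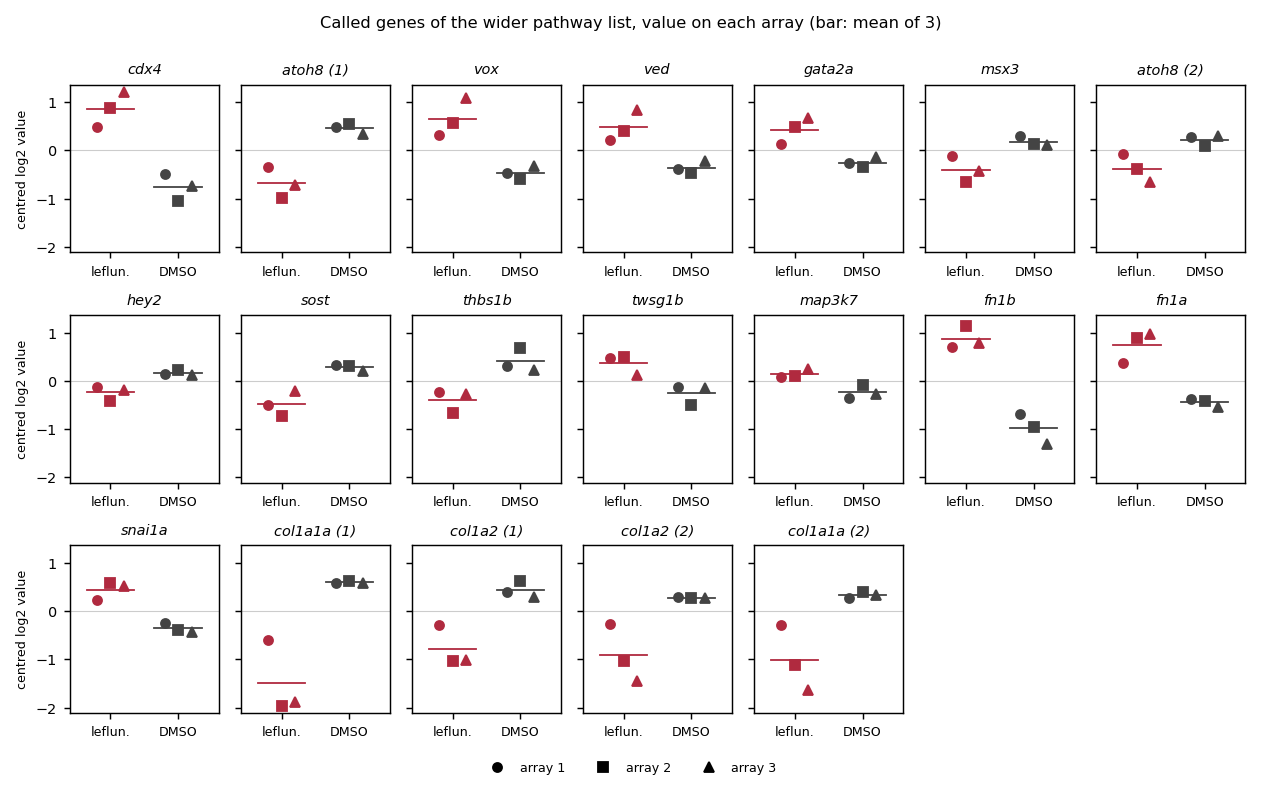
Centred log2 value of each called probe set of the wider pathway list on each array, with leflunomide on the left and DMSO on the right of each panel, 3 arrays each shown by symbol, and bars at the means. Values of vox, ved, cdx4, fn1a and fn1b are higher after leflunomide, and those of atoh8, sost, col1a1a and col1a2 are lower.

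Markers of several tissues also differed between the leflunomide and DMSO arrays. The genes cdx4, tbxta, eve1, tp63, tfap2a, snai1b and tbx5a are in both the marker lists and the wider pathway list. The background for the counts below is 9.83% higher and 10.8% lower over all tested probe sets. Neuronal markers fell at 10 of 15 tested probe sets, with list medians of -0.22, -0.70 and -0.92 on leflunomide arrays 1 to 3, against 0.16, 0.39 and 0.36 on DMSO arrays 1 to 3, and neural crest markers fell at 6 of 9. Skeletal muscle markers fell at 14 of 15 (medians -1.45, -2.23 and -2.20, against 1.45, 1.86 and 1.51) and red blood cell markers at 10 of 10. Tail bud and presomitic mesoderm markers, cdx4 among them, rose at 4 of 8 (medians 0.37, 0.36 and 0.50, against -0.13, -0.70 and -0.33), and epidermal markers were called at 0 of 11 in limma, with 3 at an unadjusted p under 0.05. Heart markers were called at 0 of 4 in limma, with 0 at an unadjusted p under 0.05, and their medians were 0.24, -0.81 and -1.40 on leflunomide arrays 1 to 3, against 0.00, 0.22 and 0.10 on DMSO arrays 1 to 3. The heart myosin light chain genes cmlc1 (0.24, -1.45 and -3.01 after leflunomide, against 0.01, 0.35 and -0.01) and myl7 (0.24, -1.38 and -2.12, against -0.01, 0.15 and 0.01) had array 1 among or above the DMSO values and arrays 2 and 3 far below. Both were picked after their values were seen. The other tested heart markers, tnnt2a and tbx5a, differed by -0.31 and -0.07. By list medians, leflunomide array 1 was the nearest of the 3 to DMSO in the neuronal, muscle, red blood cell and neural crest lists. Not every marker followed its list, and for gata1a and fech the nearest was array 3. Array 1 was the nearest for id1, id3, id4, bmp5, atoh8 and the collagen genes. For the faller sost (-0.49, -0.73 and -0.21 after leflunomide) the nearest was array 3. Array 1 was also the nearest for the risers gdf6a, inhbaa, bmp2b, chrd, vox, ved, cdx4 and gata2a, although for bmp2b arrays 1 and 3 were nearly equal (0.164 and 0.166). For the risers nog1, tgfbi and twsg1b the nearest was array 3. How often array 1 was the nearest over all called probe sets was not counted. The tissue markers were detected at the level needed for testing in 15 of 16 muscle, 10 of 10 red blood cell and 15 of 15 neuronal probe sets, and centred values do not show which are near 0. Their part in the changes of the pathway genes was not tested.

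Leflunomide array 3 stood apart in the poly-A spike-in controls. Their 3' minus 5' difference in centred values was 0.54 to 2.00 on that array, -0.71 to 0.15 on leflunomide arrays 1 and 2, and -0.53 to 0.18 on the DMSO arrays. Because each control probe set was centred over the arrays, these values compare arrays and are not ratios of 3' to 5' signal. On that array 5 of the 58 members, lft2, fsta, fstl1b, bmp4 and acvr2ba, lay more than 0.5 below the mean of the other leflunomide arrays, or 8.62%, against 7.53% of all tested probe sets. Without it, 8 of the 58 members rose and 3 fell, while 1056 of all 12702 tested probe sets rose and 1219 fell.

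**Figure D4:**
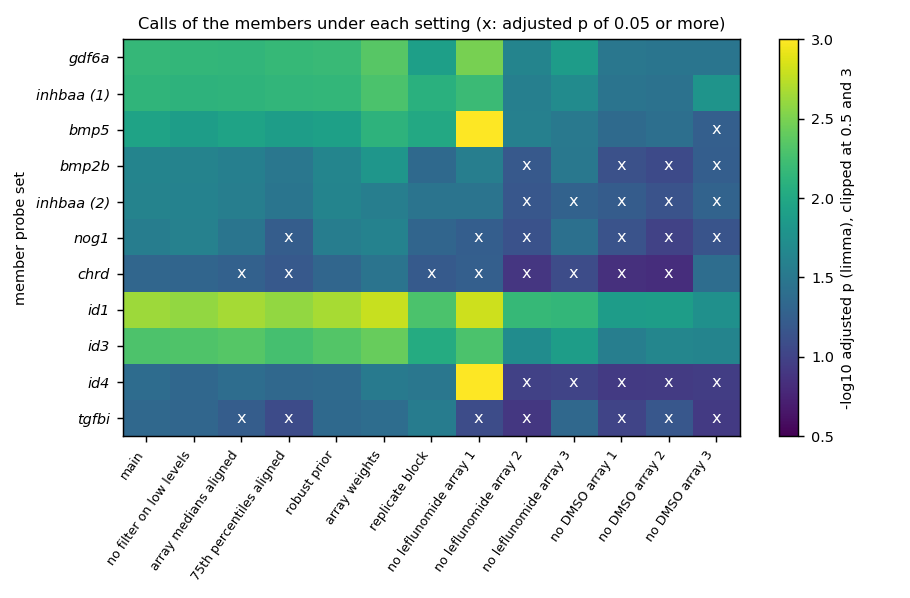
Limma adjusted p of each called member probe set (rows) under each setting (columns), as -log10, with a cross where it was 0.05 or more. gdf6a, id1, id3 and the first inhbaa probe set have no cross, and id4, tgfbi, chrd, nog1 and the second inhbaa probe set have crosses for 5 of the 6 arrays left out.

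Calls of id1, id3, gdf6a and the first inhbaa probe set were kept under every plotted setting that tested them. Without leflunomide array 2 the members had 2 higher and 3 lower calls, without DMSO array 1 or DMSO array 2 likewise 2 and 3, and without DMSO array 3 they had 3 and 2. Calls over all tested probe sets dropped too, from 1248 higher and 1370 lower with every array. In the same order they were 639 and 834, 540 and 760, 525 and 718, and 421 and 712. At a change of at least 2-fold, id1 and bmp5 were the only called members, both lower, against 136 higher and 494 lower probe sets over the whole array.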

How the data were processed

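Total RNA of 3 leflunomide and 3 DMSO samples was measured on Affymetrix zebrafish arrays. The deposited table holds log2 values, for which the submitters' processing notes name GCRMA, a method with sequence-based background correction, quantile normalization and summary by probe set. The log base is not stated and was taken from GCRMA. Each probe set has a median of 0 across the 6 arrays (within 5e-07), so its values were centred, a step no source used here states.

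The size of the rounding step, set by single precision, widens at levels of 4 and 8 and so gave each probe set a coarse level. Probe sets with a median level of at least 4 were tested (12702 of 15502; 115 array controls were left out). A median was taken to reach a level when values off its step, if any, were exactly those of the lowest 1 to 3 arrays.

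Groups and replicate numbers came from the titles. The test was limma's moderated one (version 3.58.1, lmFit then eBayes, R 4.3.3), two-sided, with Benjamini-Hochberg adjustment over all tested probe sets. The procedure was tested on simulated data with 50 probe sets changed at each size. There it recovered 30% of log2 changes of 0.5 and 78% of log2 changes of 1. The altered probe sets were few among the 12702 simulated, whereas leflunomide gave calls at 20.6% of those tested. Benjamini-Hochberg adjustment is stricter when few probe sets differ. These rates therefore do not measure the sensitivity of the real test. Real changes of such sizes may still have gone uncalled. Intervals are at 95%, unadjusted. Only probe sets with 1 gene in the platform annotation were named; 63 of the 64 members were found in the RefSeq table of GRCz12tu, which changed no member symbol. Alternatives were another or no filter on level, aligned medians or 75th percentiles, the replicate number as a block, a robust prior, weighted arrays, the mean of a gene's probe sets, stricter thresholds and 1 array left out. Close paralogues may cross-hybridize. Precision is limited by the number of arrays.

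The symbol rule uses no measured value, but the members and lists were chosen with earlier results of these data known. Each called member is named, and in each role the 4 uncalled ones with the lowest adjusted p, besides a fixed set (bmp2b, bmp4, bmp7a, ndr1, ndr2, chrd, szl, nog1, nog2, nog3, lft1, lft2, smad1, smad5, smad7 and the Id genes). The fixed set also held smad6b and smad9, which had no probe set among the members. Of the wider list, the 6 called genes with the lowest adjusted p in a group are named. The gene hey2 lies outside that rule and was chosen after its values were seen, as were the heart markers cmlc1 and myl7. The untested genes of the wider list also lie outside that rule. Marker lists of notochord and eye had 2 and 0 higher and 0 and 2 lower calls among 4 and 9 tested probe sets. Over all tested probe sets, 9.83% were higher and 10.8% lower.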

Additional observations from a re-analysis of the deposited data

How the results depend on the processing

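The differences of 38 member probe sets were followed. With 1 array left out, direction and side of the threshold were kept in 188 cases, while 30 lost a call, 5 gained one and 5 changed sign. Under the other alternatives these counts were 263, 6, 3 and 4. No called value changed sign. The sign changes were those of small, uncalled values: with 75th percentiles aligned, bmp7a (-0.005) and 1 smad5 probe set (-0.001), with array weights, ndr2 (0.034) and smad1 (0.030), and with 1 array left out, lft1 (-0.024 to 0.458), bmp7a (-0.074 to 0.146), ndr2 (-0.071 to 0.101) and smad1 (-0.123 to 0.103). The cause was not tested. With 1 array left out, higher and lower calls ran from 421 to 1385 and 712 to 1444 over all probe sets, from 2 to 8 and 2 to 5 among members, and from 5 to 10 and 4 to 12 in the wider list. When testing was limited to levels of 8 and above (4174 probe sets, 14 of them members), the counts were 676 and 530 over all, 1 and 2 among members, and 3 and 5 in the wider list. At an adjusted p under 0.01 they were 294 and 575, 2 and 2, and 5 and 3. With a change of at least 2-fold they were 136 and 494, 0 and 2, and 4 and 5. Aligning 75th percentiles left 4 higher member calls, and 947 higher calls over all tested probe sets, against 1248 as deposited.

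With the replicate number as a block, members had 6 higher and 4 lower calls, the whole array 1259 and 1300, and the wider list 8 and 11. Deviations of same-numbered arrays correlated at 0.33, 0.19 and 0.07 for numbers 1 to 3. The last was close to the 0.05 of leflunomide array 3 with DMSO array 2. Each leflunomide array correlated best with the DMSO array of its own number, which is a hint from the data and not from the labels. Arrays have no counted depth, and signal over background is known only as the coarse level.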

Other observations

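Some genes of the wider pathway list lay below the level needed for testing and are given as values with no test. foxh1, the transcription factor that carries Nodal signals with Smad2, had differences of 0.53 and 0.40 (leflunomide minus DMSO) at its 2 probe sets. At the first of these the leflunomide arrays were at -0.02, 0.24 and 0.77, against -0.35, -0.26 and 0.02 on the DMSO arrays, so that leflunomide array 1 lay between DMSO arrays 2 and 3. vent, a homeobox repressor related in function to vox and ved, had differences of 0.37 and 0.26. The ligand genes admp and spaw had differences of 0.20 and -0.05, and the organizer gene gsc 0.20. Untested probe sets of snai2 had differences of -0.28 and -0.18, that of amh -0.12 and that of fn1a 0.21. Those of tbx5a, twsg1a and ccn2b lay between -0.02 and 0.03.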
